A study of Mus musculus with 30 samples.

Results

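The 10 genes described here are those that mark fat cells and the hormones fat cells secrete: the adipokines Adipoq, Lep, Retn and Cfd, the lipid droplet proteins Plin1 and Cidec, the lipid handling proteins Fabp4, Lipe and Lpl, and the transcription factor Pparg. They were chosen by name, with earlier results of these data known. For each gene the transcript row with the highest mean over all tumours was taken. This gave 10 of the 20842 genes named in the table. Expression was measured by sequencing poly-A selected RNA from 30 mammary tumours, 1 per mouse. The tumours were induced by the polyoma middle T antigen (PyMT), a viral oncogene, in mice bred by crossing a MOLF x PyMT animal back to FVB, so that each animal inherited its own share of MOLF segments. The labels give 1 group, no treatment, age, promoter or stage, and identify each mouse by a number, which is used here as its name. Values are in RPKM, reads scaled to transcript length and to library size, so levels of the rows taken can be compared between genes.

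The mouse mammary gland grows within a fat pad, and a tumour piece can hold fat cells of that pad beside tumour epithelium. Fat cells store triglyceride in a lipid droplet coated by perilipins, release it through a series of lipases, and take up fatty acids that lipoprotein lipase frees from circulating lipoproteins. The nuclear receptor PPAR gamma, with C/EBP factors, switches on much of this programme, and the cells secrete hormones such as adiponectin and leptin. In pieces of whole tissue, fewer fat cells and less RNA per fat cell cannot be told apart.

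Start site sequences are given as a description, because C/EBP factors and PPAR gamma are known regulators of such genes. Whether these factors bear on the variation between tumours was not tested. RefSeq windows of build GRCm38.p6, each from 250 bases before to 50 bases after a gene start, were found for 8 of the 10 genes (12 windows). The C/EBP-like motif TTGCNNAA, searched on both strands, was present in 4 of the 12 windows and in 10.8% of all 32851 windows. The nuclear receptor half-site AGGTCA, also on both strands, was in 2 of the 12, both at Pparg, and in 16.26% of all windows. Of 6 motifs searched, the others were the direct repeat of AGGTCA with 1 base between (0 of 12 windows, 0.04% of all), its looser form with AGGNCA (0 of 12, 0.38% of all), TATAAA (1 of 12, 13.62% of all) and CCAAT (3 of 12, 37.41% of all). A match is a stretch of letters and was not tested for binding. The 4 windows with TTGCNNAA, chosen for printing after the matches were seen, follow with each TTGCNNAA match in capitals.
Lep, chr6:29059971-29060270, forward strand: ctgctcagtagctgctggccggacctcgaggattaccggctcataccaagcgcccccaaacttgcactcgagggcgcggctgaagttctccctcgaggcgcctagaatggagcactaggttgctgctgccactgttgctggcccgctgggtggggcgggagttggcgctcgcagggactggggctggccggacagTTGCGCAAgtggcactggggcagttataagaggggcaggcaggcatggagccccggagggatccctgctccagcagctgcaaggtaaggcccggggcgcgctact
Plin1, chr7:79732727-79733026, reverse strand: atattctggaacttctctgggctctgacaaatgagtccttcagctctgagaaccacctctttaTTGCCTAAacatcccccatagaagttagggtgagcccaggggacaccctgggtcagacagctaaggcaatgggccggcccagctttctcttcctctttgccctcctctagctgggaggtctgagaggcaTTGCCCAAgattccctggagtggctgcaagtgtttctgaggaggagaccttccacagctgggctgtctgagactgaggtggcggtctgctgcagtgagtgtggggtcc
Cidec, chr6:113434715-113435014, reverse strand: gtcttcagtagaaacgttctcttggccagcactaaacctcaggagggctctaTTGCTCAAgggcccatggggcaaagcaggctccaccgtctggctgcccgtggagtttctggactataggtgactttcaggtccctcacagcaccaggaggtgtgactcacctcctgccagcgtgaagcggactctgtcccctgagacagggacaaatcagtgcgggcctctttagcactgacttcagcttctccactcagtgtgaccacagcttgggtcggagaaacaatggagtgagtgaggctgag
Pparg, chr6:115421816-115422115, forward strand: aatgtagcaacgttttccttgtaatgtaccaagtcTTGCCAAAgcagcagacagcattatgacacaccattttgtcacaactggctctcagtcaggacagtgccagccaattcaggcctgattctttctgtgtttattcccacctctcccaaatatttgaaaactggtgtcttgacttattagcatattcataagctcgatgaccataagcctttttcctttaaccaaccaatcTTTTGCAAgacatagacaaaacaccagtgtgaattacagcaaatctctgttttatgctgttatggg
The Lep match began 55 bases before the start and read the same on both strands. Plin1 had matches at 187 and 58 bases before the start, Pparg at 215 and 16 bases, and Cidec at 198 bases. Pparg has several starts, and the window shown is the one farthest downstream of its 3 windows.

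The tumours were first checked for depth and tissue. Sequencing depth, estimated from how low values are spaced, was 42.6 to 62.0 M reads in 16 shallow libraries and 116.9 to 196.5 M reads in 14 deep ones. All tumours carried luminal epithelial markers: the sum of 9 of them, Krt8, Krt18 and Epcam included, ranged from 1428 to 3196 RPKM. The share of the 10 fat genes was taken of the RPKM summed over the 20842 named genes, 1 row per gene. It was 0.0112% in the lowest tumour, 0.0447% at the median and 0.618% in the highest. The 10 genes were thus a small part of this sum in each tumour.

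The adipokines differed between tumours by more than an order of magnitude. Adipoq, which encodes the hormone adiponectin and is made almost solely by fat cells, ranged from 1.12 RPKM in animal 3871 over a median of 6.86 to 126 RPKM in animal 4036. After 4036 came 3273 with 71.2, 4142 with 65.8 and 4357 with 52.1 RPKM, and next 4038 with 29.5. These 4 tumours are called the 4 highest tumours from here on, a cut made after the values were seen. The other 26 ranged from 1.12 to 29.5 RPKM. Animal 4036 was among the deep libraries and the other 3 were among the shallow ones. Cfd, the complement protease adipsin, was far more abundant, at 13.5 RPKM in its lowest tumour (4461), 60.8 at the median and 915 in 4036. Retn, which encodes the hormone resistin, ranged from 1.26 RPKM in 4461 over a median of 4.18 to 57.5 in 4036. Both genes had the same 4 tumours on top as Adipoq.

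Lep, which encodes leptin, the hormone that reports the size of the fat stores, was by far the scarcest of the 10. It ranged from 0.022 RPKM in animal 4150 over a median of 0.134 to 5.3 RPKM in 4036, which was more than 4 times the next value (1.19 in 4142). The lowest value stood for about 3.1 reads and the median for about 46.3 reads, estimated from depth and transcript length, so differences among the low tumours were barely resolved. Its mean of 0.448 RPKM was below the minimum of 1 RPKM set for tests, and Lep therefore enters the tests below only where no minimum was used. Lep was the single member whose 4 highest tumours were not the 4 named above: 4038, with 0.865 RPKM, took the place of 4357, with 0.818.

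The lipid droplet genes had the same 4 tumours on top. Plin1, the perilipin that coats the droplet and guards it from lipases, ranged from 0.679 RPKM in 3871 over a median of 3.31 to 75.5 in 4036. Its next values were 43.5 in 3273, 33.4 in 4357 and 32.8 in 4142, followed by 15.8 in 4038. Cidec, which promotes the fusion of droplets into 1 large droplet, ranged from 2.12 RPKM in 4461 over 5.93 to 97.0 in 4036. For both genes the highest of the other 26 tumours lay below all 4.

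Among the genes of lipid traffic, Fabp4, the fatty acid carrier of the fat cell cytoplasm, was the most abundant of the 10 at the median. It had 19.5 RPKM in 4461, a median of 83.1 and 1066 RPKM in 4036. Lpl, lipoprotein lipase, ranged from 4.54 RPKM in 4461 over 16.9 to 190 in 4036. Lipe, hormone-sensitive lipase, had the narrowest range of the 10, from 6.42 RPKM in 4150 over 14.9 to 76.8 in 4036. Its extremes differed 12-fold, against 112-fold for Adipoq and 111-fold for Plin1. Lep had the widest range, 241-fold, from a lowest value of about 3.1 reads. Pparg, the regulator, was low in all tumours, from 0.276 RPKM in 4164 over 1.2 to 11.03 in 4036. The plot of all 10 genes by tumour shows these levels side by side.

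**Figure D1:**
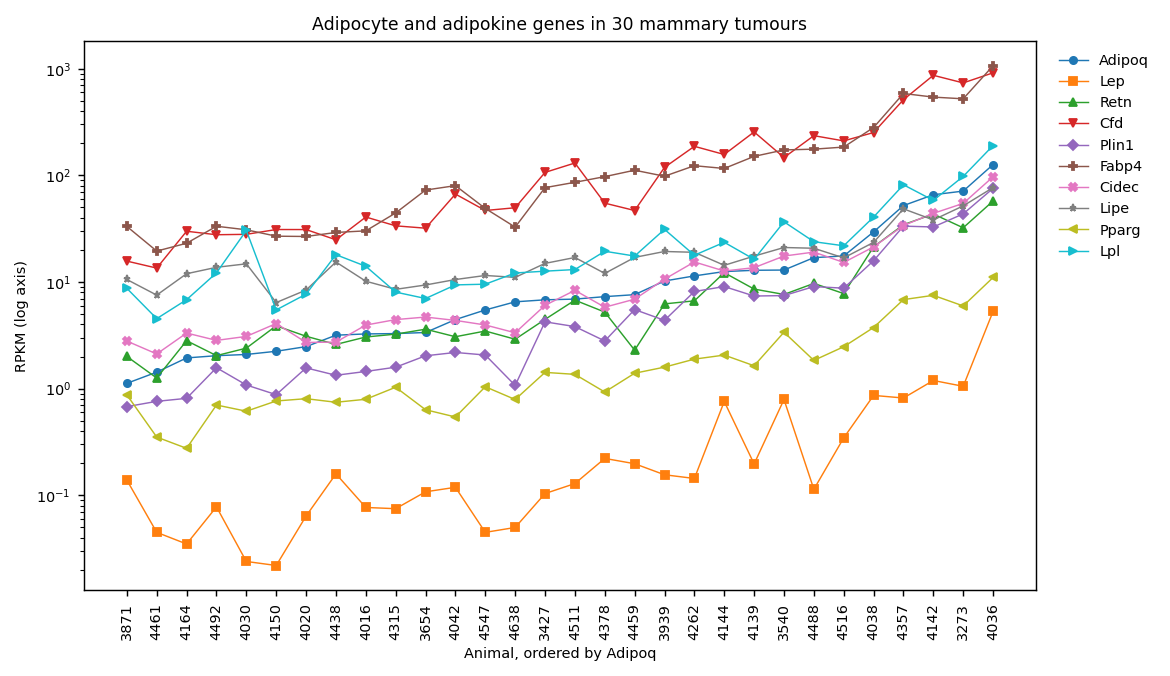
RPKM (log axis) of the 10 genes in each of the 30 tumours, which are ordered by Adipoq from left to right; each symbol and line is 1 gene. Most lines climb together to 4036 at the right, where Fabp4 reaches 1066 RPKM, while Lep stays lowest throughout and Lpl has a separate peak of 30.4 RPKM in animal 4030.

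By median level of the rows taken the order was Fabp4, Cfd, Lpl, Lipe, Adipoq, Cidec, Retn, Plin1, Pparg and Lep. Lipe, Plin1 and Pparg each had another row, with means of 16.7, 9.43 and 2.09 RPKM, against 19.3, 9.70 and 2.17 in the rows taken. For these genes the place in the order given holds only for the row taken. Some neighbours in this order did not differ beyond the spread: Fabp4 exceeded Cfd in 15 of 30 tumours, Lpl exceeded Lipe in 16 of 30 and Adipoq exceeded Cidec in 13 of 30. Other neighbours kept their order in most tumours. Cfd exceeded Lpl in 29 of 30 tumours, Cidec exceeded Retn in 27, Plin1 exceeded Pparg in 29 and Pparg exceeded Lep in 30 of 30.

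On the log2(RPKM + 1) scale used for all tests, which understates differences of low genes, the SD over the 30 tumours was 1.71 for Cfd, 1.55 for Adipoq, 1.54 for Fabp4, 1.52 for Plin1, 1.32 for Cidec, 1.25 for Retn and 1.21 for Lpl. It was 0.83 for Pparg, 0.79 for Lipe and 0.54 for Lep. Of the 10 genes 7 had an SD of at least 1, as had 1.75% of the genes tested, whose median SD was 0.27. Without the 4 highest tumours the SD of Adipoq was 1.03, of Cfd 1.28 and of Fabp4 1.09.

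The levels of the 10 genes were closely related across tumours. Over the 36 pairs among the 9 genes other than Lep, Pearson's r of log2 values across the 30 tumours ranged from 0.839 to 0.982 (median 0.948) and Spearman's rho from 0.705 to 0.966 (median 0.894). These are descriptions, since the genes were known beforehand as fat cell genes and the points share their library and its depth. With Lep included the lowest r of the 45 pairs was 0.739. Within the 14 deep libraries r of the 36 pairs ranged from 0.792 to 0.995 and within the 16 shallow ones from 0.881 to 0.981. Without 4036 and 3273, the tumours farthest from the median of Adipoq, it ranged from 0.778 to 0.971. Without the 4 highest tumours r ranged from 0.659 to 0.957 (median 0.869). Averaged over the other 9 genes, r was highest for Plin1 (0.942), Adipoq and Cidec (0.938 each) and lowest for Lep (0.826) and Lpl (0.883).

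To ask which genes followed Adipoq, each gene with a mean of at least 1 RPKM was regressed on the Adipoq level. All 8 other members that could be tested rose with Adipoq, whereas 6.58% of the 13609 genes tested rose (limma, adjusted p under 0.05 by the Benjamini-Hochberg method across the tested genes). The slopes, per log2 unit of Adipoq, were 1.06 ± 0.05 (SE, n = 30) for Cfd, 0.96 ± 0.036 for Plin1 and 0.96 ± 0.045 for Fabp4. Cidec (0.83 ± 0.036), Retn (0.77 ± 0.042) and Lpl (0.70 ± 0.062) had lower slopes, and Pparg (0.51 ± 0.03) and Lipe (0.47 ± 0.037) the lowest. On the log2(RPKM + 1) scale the slope of a low gene such as Pparg is understated. Adjusted p ranged from 3.95e-19 for Plin1 to 7.12e-10 for Lpl. Lep rose as well where no minimum was set (0.45 ± 0.06 log2 units per SD of Adipoq, adjusted p = 1.76e-06, limma). Per SD of Adipoq the lowest slope of the 8, that of Lipe, was 0.73 ± 0.06. Without the 4 highest tumours all 8 rose, where 0.301% of all genes did, with adjusted p from 7.53e-11 for Cfd and Plin1 to 0.00212 for Lpl and 0.000681 for Lipe (limma).

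**Figure D2:**
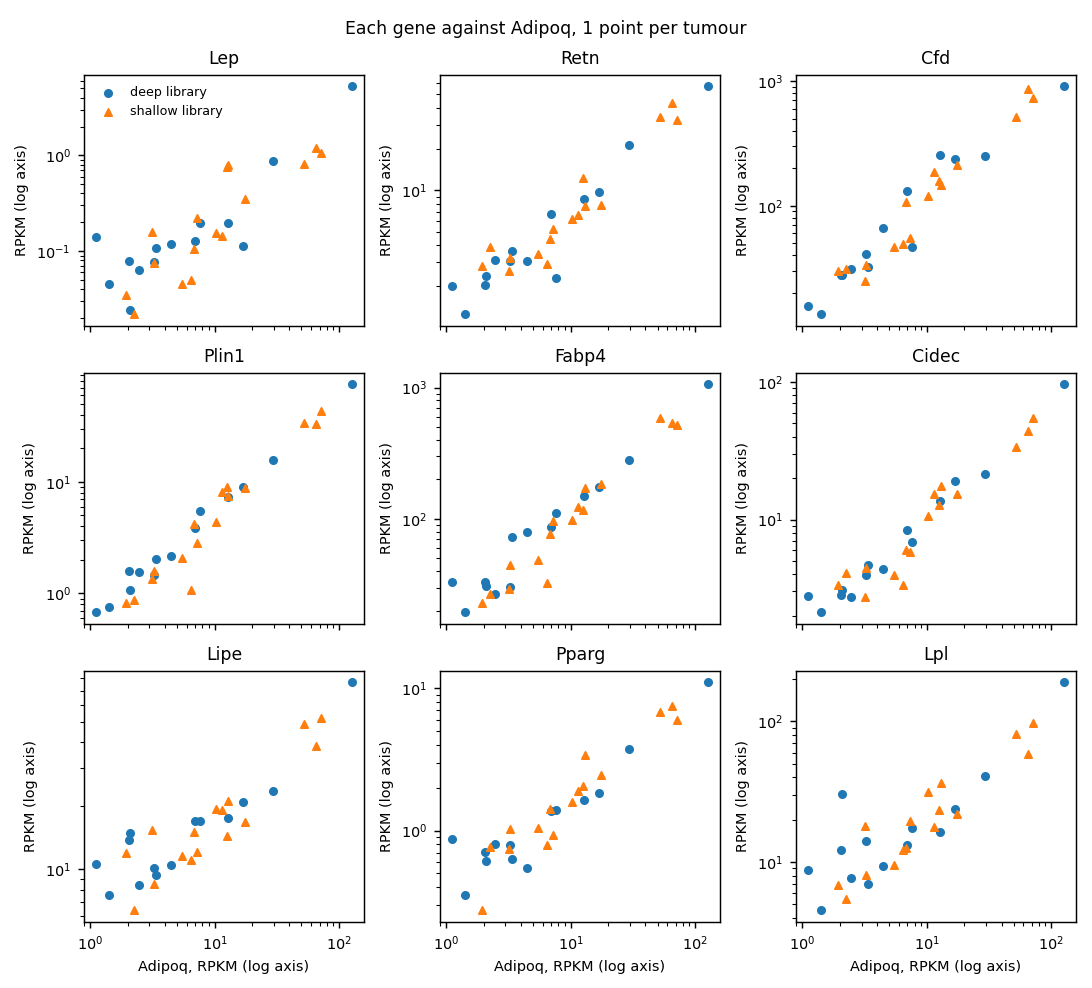
RPKM of each of the other 9 genes (vertical, log axis) against RPKM of Adipoq (horizontal, log axis), 1 point per tumour; circles are the 14 deep libraries and triangles the 16 shallow ones. The points climb from left to right in all 9 panels. Plin1 in animal 4638 (1.07 RPKM) lies below the others of similar Adipoq, and Lpl has 1 tumour with 30.4 RPKM far above the others of similar Adipoq.

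The largest departure from the fitted lines was that of Lpl in animal 4030, which had 30.4 RPKM of Lpl at only 2.09 RPKM of Adipoq, 1.79 log2 units above the fitted line. Lipe was also farthest above its line in 4030 (14.8 RPKM, 0.63 log2 units). Animal 4638, with 6.52 RPKM of Adipoq, had the lowest residual for 4 genes: Plin1 (1.07 RPKM, -1.14 log2 units), Fabp4 (32.7 RPKM, -1.12), Cidec (3.34 RPKM, -0.88) and Pparg (0.792 RPKM, -0.40). In animal 4459 Retn (2.3 RPKM, -1.04) and Cfd (46.8 RPKM, -0.79) were low for their Adipoq of 7.61 RPKM. The Lpl to Adipoq ratio varied 16.4-fold over the tumours and the Lipe to Adipoq ratio 16.2-fold, against 3.22-fold for Cfd and 4.69-fold for Plin1. For the scarce Lep the ratio varied most, 18.4-fold.

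Several of the genes outside the 10 with the most similar pattern are known from fat cells. By Pearson's r over the 30 tumours, Mrap, an accessory protein of melanocortin receptors, was the closest to Adipoq (0.963), Retn (0.963), Fabp4 (0.965) and Cidec (0.971). Plin1 was closest to Dgat2, which makes triglyceride (0.974), Cfd to the carbonic anhydrase Car3 (0.951), Pparg to the perilipin Plin4 (0.97) and Lep to Trarg1, a regulator of glucose transporter traffic (0.942). Lipe was closest to the aminopeptidase Enpep (0.936), glutamine synthetase Glul (0.935) and the fatty acid receptor Cd36 (0.934), and Lpl to Cd36 (0.928), the endothelial receptor Cd300lg (0.919) and Trarg1 (0.916). These likenesses carry no test.

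In the regression on Adipoq the 10 rising genes with the smallest p outside the members were Mrap, Car3, Pck1, Plin4, Dgat2, Slc36a2, Cdo1, Trarg1, Rbp4 and Adrb3. Car3 had the steepest slope of these (2.09 ± 0.12 log2 units per SD of Adipoq, SE), followed by Pck1, which supplies glycerol for triglyceride synthesis in fat (1.7 ± 0.10), and Dgat2 (1.33 ± 0.08). The falling genes, 1.26% of those tested, were led by Gne, an enzyme of sialic acid synthesis (-0.22 ± 0.04, adjusted p = 0.000374), the seryl-tRNA synthetase Sars (-0.16 ± 0.03), the uridine-cytidine kinase Uck2 (-0.21 ± 0.04) and Rbmxl1 (-0.15 ± 0.03), followed by Mphosph6, the oxidase Ero1a (-0.30 ± 0.07), the oxygen sensor Egln3 (-0.40 ± 0.10), Wsb1, Polr2k and Pum3. The 171 falling genes became 30 without animal 4036, 43 without 3273, 100 without 4142, 108 without 4030 and 335 without 4020. Under quantile normalization 744 genes rose and 295 fell, against 895 and 171 here. Without the 4 highest tumours 41 genes were called, all rising (limma).

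Other genes of the fat cell programme were read from 9 lists grouped by role. The lists were chosen with earlier results of these data known, so their counts are given as a description. Of 76 listed genes tested, 45 rose with Adipoq (6.58% of all genes rose), 1 fell and 30 did not pass; the median slope was 0.28 log2 units per SD against -0.01 for all genes tested. Without animal 4036, 36 of them rose, where 4.57% of all genes did, and without the 4 highest tumours 11 rose, where 0.301% of all genes did. Many listed genes are also made by mammary epithelium. Markers of stroma matrix and of endothelium, set out as scores below, were themselves related to Adipoq (Pearson's r 0.593 and 0.719). Whether listed genes, those of precursors and caveolae included, rose with Adipoq apart from such cells was not tested.

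Among droplet coat genes 4 of 8 rose, 2 without animal 4036 and 1 without the 4 highest tumours. Plin4 had a slope of 1.10 ± 0.06 log2 units per SD of Adipoq, while Plin2 (mean 183 RPKM, -0.06 ± 0.08) and Plin3 (mean 49.6 RPKM, -0.04 ± 0.05), perilipins found in many cell types, did not pass. Of the lipolysis genes 3 of 7 rose (1 without the 4 highest tumours), led by Adrb3, the beta adrenergic receptor of fat cells (0.98 ± 0.07). Pnpla2, the first lipase, was among them (mean 80.2 RPKM, 0.31 ± 0.04). Its activator Abhd5 (mean 99.8 RPKM, 0.02 ± 0.09) and its inhibitor G0s2 (mean 93.7 RPKM, 0.02 ± 0.12) did not pass. Of the synthesis genes 9 of 13 rose (3 without the 4 highest tumours), among them Dgat2 and the desaturase Scd1 (mean 260 RPKM, 0.43 ± 0.10), while Thrsp (mean 298 RPKM, 0.05 ± 0.10) and Scd2 (-0.07 ± 0.05) did not pass. Uptake and glycerol genes rose in 6 of 9 cases (2 without the 4 highest tumours), with Pck1 steepest and the glycerol phosphate dehydrogenase Gpd1 at 0.50 ± 0.06. The listed gene that fell was Fabp5, the epidermal relative of Fabp4 (mean 166 RPKM, -0.38 ± 0.10, adjusted p = 0.0125, limma), which was not called without the 4 highest tumours.

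Of the transcription factors 4 of 9 rose, with Ebf1 the steepest (0.45 ± 0.06) and Cebpa, the partner of PPAR gamma, at 0.31 ± 0.06. Without the 4 highest tumours 0 of the 9 were called, although 4 had an unadjusted p under 0.05 (limma). Srebf1 (mean 379 RPKM, 0.01 ± 0.10) and Cebpb (mean 60.2 RPKM, -0.19 ± 0.08) did not pass. Of other adipokines and their receptors 4 of 10 rose (1 without the 4 highest tumours): the retinol carrier Rbp4 (1.16 ± 0.08), Rarres2, which encodes chemerin (0.60 ± 0.08), the adiponectin-binding cadherin Cdh13 (0.32 ± 0.08) and the adiponectin receptor Adipor2 (0.27 ± 0.04). Adipor1 (mean 96.8 RPKM, 0.05 ± 0.04), Apln (-0.19 ± 0.14) and the leptin receptor Lepr (0.01 ± 0.10) did not pass. Of the remaining fat cell genes 9 of 10 rose (3 without the 4 highest tumours), with Car3 steepest and the caveolae protein Cav1 at 0.65 ± 0.07, and the insulin receptor Insr (0.06 ± 0.04) did not pass. Precursor genes rose in 4 of 7 cases, led by Pi16 (0.53 ± 0.10) with Cd34 (0.47 ± 0.08) and Ly6a (0.40 ± 0.11), and Zfp423 (0.09 ± 0.06) did not pass. Without animal 4036 the precursor count was 2 of 7, and without the 4 highest tumours 0 of 7, where 2 had an unadjusted p under 0.05 (limma).

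**Figure D3:**
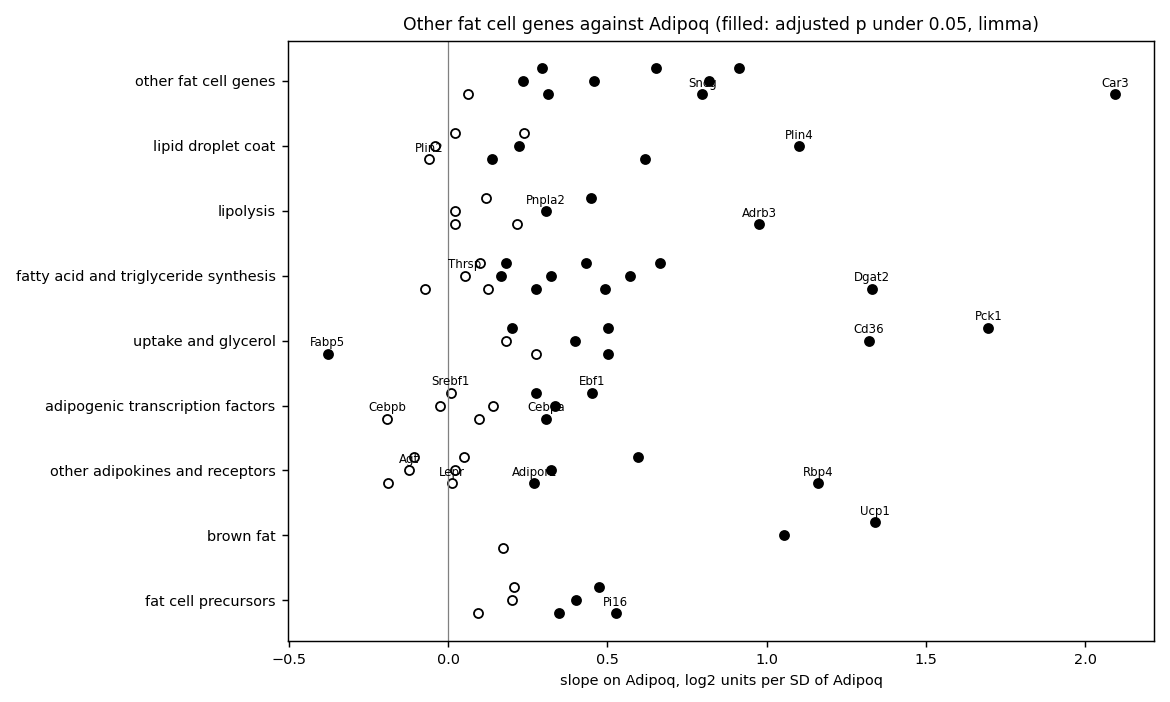
Slope on Adipoq (horizontal, log2 units per SD of Adipoq) of the tested genes of 9 fat cell lists (rows), 1 circle per gene, filled where the adjusted p was under 0.05 in limma; some genes are named. Car3, Pck1, Ucp1, Dgat2 and Cd36 lie farthest to the right, and Fabp5 at -0.38 is the single filled circle left of 0.

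Of 6 listed genes of brown fat, the heat-producing kind, 3 were tested, and 2 of these, Ucp1 and Cox8b, rose with Adipoq. Dio2, Prdm16 and Elovl3 had means below the minimum of 1 RPKM (0.621, 0.256 and 0.56). Without the 4 highest tumours 0 of the 3 were called, although 2 had an unadjusted p under 0.05 (limma). Ucp1, the uncoupling protein that defines brown fat, had values in separate ranges, a split noticed after the values were seen: 23 tumours had at most 0.63 RPKM, 2 of them listed at 0, and 7 had 7.77 to 76.7 RPKM. The highest was animal 4357, followed by 4036 with 32.4 and 4516 with 20.8 RPKM. The 4 tumours highest in Adipoq were all among the 7, but so were 4459 (12.1 RPKM of Ucp1 at 7.61 of Adipoq), 3540 (9.19 at 12.95) and 4516. Animal 4038, next in Adipoq after the 4 highest tumours, had 0.398 RPKM of Ucp1. Animal 4357 was also the highest in the brown fat elongase Elovl3 (3.8 RPKM, median 0.408) and in Prdm16 (0.661 RPKM). In the rest of the 7 tumours Elovl3 ran only from 0.398 RPKM in 3540 to 0.928 in 4036. Dio2 was highest in 4516 (2.12 RPKM). Tumour 4357 was highest in Cidea, a relative of Cidec listed with the droplet coat genes (45.6 RPKM, median 7.94). Cidea was not confined to tumours high in Ucp1: 4150 had 13.9 RPKM of Cidea at 0.171 of Ucp1, and 4459 had 8.03 at 12.1. Against Adipoq, Ucp1 had a slope of 1.34 ± 0.22 log2 units per SD (adjusted p = 6.03e-05, limma). Ucp1 reached the minimum for tests only through the 7 tumours where it was high (mean 5.94, median 0.19 RPKM). Those 7 include the 4 highest tumours, so its p is no evidence of a graded relation. Cox8b had a slope of 1.05 ± 0.14 and Cidea of 0.62 ± 0.16, while Cox7a1 (0.17 ± 0.12) did not pass (limma). The highest Cox7a1 value, 97.2 RPKM, was in 3871, which had 0.156 RPKM of Ucp1. Cox8b is also made in muscle, and its highest value, 86.9 RPKM, was in 3273.

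**Figure D4:**
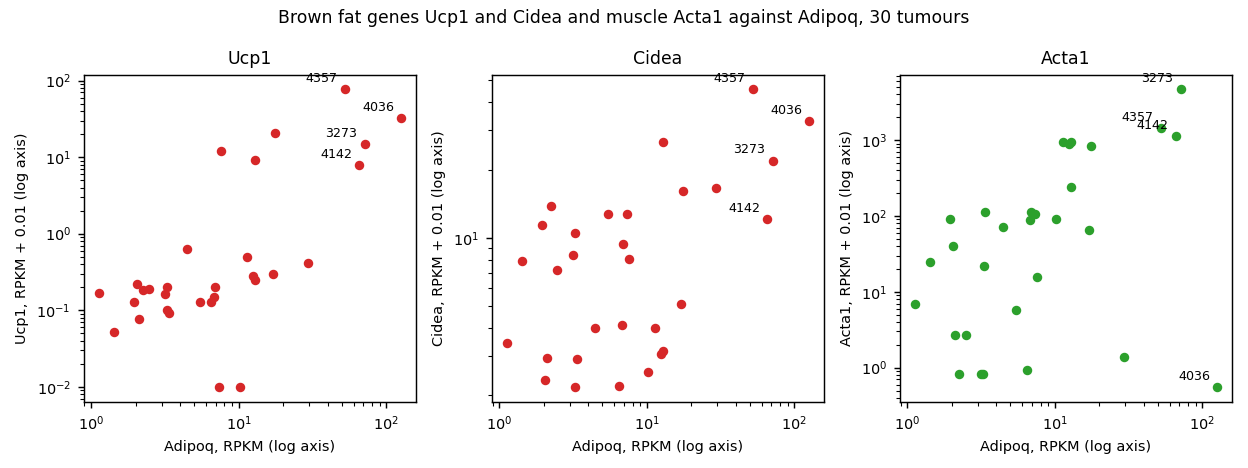
RPKM + 0.01 (log axis) of the brown fat gene Ucp1, of Cidea and of the muscle actin Acta1 against RPKM of Adipoq (log axis), 1 point per tumour, with the 4 tumours highest in Adipoq named by animal. Ucp1 splits into 7 tumours at 7.77 RPKM or more and 23 at 0.63 or less, and animal 4036 joins the highest Adipoq with 0.551 RPKM of Acta1.

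Fat genes were then set against markers of other cells, each list summarised as a score (the mean of its standardised log2 values). All 9 tested members rose with the endothelial score, where 10.9% of all genes rose; slopes ran from 0.57 ± 0.10 log2 units per SD for Lipe to 1.25 ± 0.21 for Cfd (adjusted p at most 0.000129, limma). All 9 rose with the stroma matrix score (9.52% of all genes), from 0.49 ± 0.11 for Lipe to 0.98 ± 0.25 for Cfd, and all 9 with the macrophage score (7.05% of all genes), from 0.51 ± 0.11 for Lipe to 1.06 ± 0.24 for Cfd. These counts changed when the 4 highest tumours were left out. Without animal 4036 the stroma count was 5 and the macrophage count 7. Without the 4 highest tumours the counts were 1 for the endothelial, 0 for the stroma matrix (1 unadjusted p under 0.05) and 0 for the macrophage score (0 unadjusted). Cfd, the member called with the endothelial score, had a slope of 0.65 (adjusted p = 0.041, limma). With the stroma matrix score 3 members were called in the shallow libraries alone. With the macrophage score 0 were called in the deep libraries alone and 0 in the shallow ones alone, although all 9 had an unadjusted p under 0.05 in each (limma).

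In animal 4036 the 19 stroma matrix genes summed to 7733 RPKM, against a median of 1586 and a maximum of 2101 RPKM in the 26 tumours outside the 4 highest. Its luminal epithelial sum, 1428 RPKM, and its proliferation sum, 425 RPKM, were the lowest of all 30. Its macrophage sum of 1078 RPKM lay with those of the other 3 high tumours (1062 to 1173 RPKM), above the highest of the other 26 (1042 RPKM). The macrophage score did not set the 4 apart: animal 4547 (1.181) lay between 4142 (1.244) and 4357 (1.084).

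Fabp4, Lpl, Pparg and Cidec can also be made by capillary endothelium, macrophages or milk-producing epithelium, so each member was tested against those scores with Adipoq held in the model. No member of 8 passed with the endothelial score given Adipoq (9.99% of genes called in either direction; 1 unadjusted p under 0.05, limma). That member was Lpl (0.27 ± 0.13 log2 units per SD, unadjusted p = 0.0499, adjusted p = 0.194), which passed, of all single tumours left out, only without animal 4438 (0.41, adjusted p = 0.038). No member passed with the macrophage score given Adipoq (1.09% of genes called; 0 unadjusted) or the milk score given Adipoq (1.53% of genes called; 0 unadjusted). For Fabp4 these slopes were 0.02 ± 0.10, -0.03 ± 0.09 and 0.09 ± 0.07 for the endothelial, macrophage and milk scores.

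The milk score itself, from caseins and other milk genes, had no member called out of 9 (1.37% of genes called in either direction; 0 members with an unadjusted p under 0.05, limma), with slopes from -0.05 to 0.12 log2 units per SD. The lymphocyte score likewise had none of 9 (1.37% of genes called; 0 unadjusted), with slopes from 0.08 to 0.36. With the proliferation score 1 of 9 fell, Retn (-0.62 ± 0.19, adjusted p = 0.0288, limma), where 6.59% of all genes fell, and 7 of 9 had an unadjusted p under 0.05. The count called was 0 without animal 4036 or 4142, 2 without 4150, 4357 or 4378, and 4 without 4020.

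Skeletal muscle, which lies beside the mammary fat pad, gave a relation to the fat genes that single tumours changed. With the muscle score 5 of 9 members rose, where 2.04% of all genes rose: Cfd (1.04 ± 0.24 log2 units per SD), Fabp4 (0.89 ± 0.22), Plin1 (0.87 ± 0.22), Adipoq (0.84 ± 0.23) and Cidec (0.77 ± 0.19), with adjusted p from 0.00965 to 0.049 (limma). Retn (0.67 ± 0.19, adjusted p = 0.0543), Pparg (0.43 ± 0.13), Lpl (0.51 ± 0.19) and Lipe (0.38 ± 0.12) did not pass. All 9 had an unadjusted p under 0.05 (limma). Of the 4 tumours highest in fat genes 3 were rich in muscle RNA, with 14-gene sums of 17081 RPKM in 3273, 6593 in 4357 and 4229 in 4142, but 4036 had the lowest sum of all 30, 34.0 RPKM. In the fits, 9 members passed without animal 4036, 1 without 4142, 1 without 4357 and 0 without 3273. All 9 passed within the shallow libraries, which hold 3273, 4142 and 4357, and 0 within the deep ones, which hold 4036 (0 unadjusted). There the slopes of Adipoq (-0.19), Plin1 (-0.19) and Cidec (-0.11) were below 0 without passing.

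**Figure D5:**
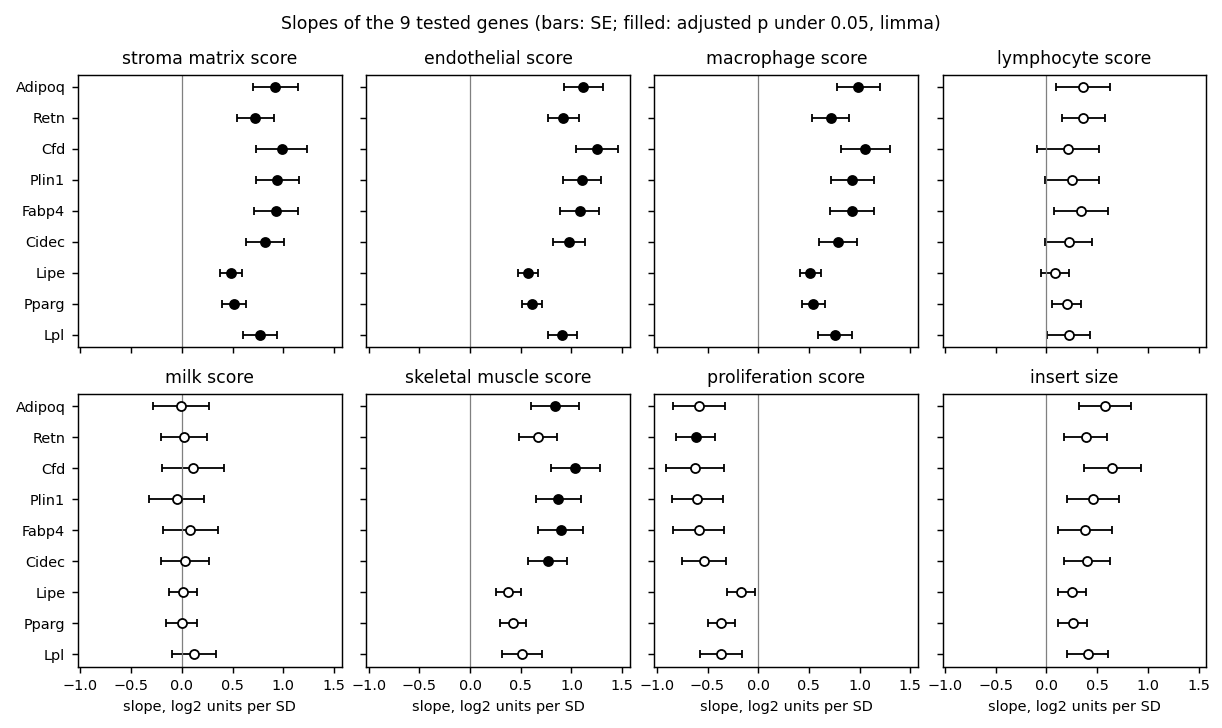
Slopes (horizontal, log2 units per SD of the score or of insert size) of the 9 tested genes on 7 marker scores and on insert size, 1 panel each; points are estimates, bars are SE over 30 tumours, and filled points had an adjusted p under 0.05 in limma. All 9 points are filled for the stroma matrix, endothelial and macrophage scores, 5 for skeletal muscle, 1 for proliferation and none for lymphocyte, milk and insert size.

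The mean insert size in the labels, whose unit is not given, had no member called of 9 (0.0367% of genes called in either direction; 2 members, Adipoq and Cfd, with an unadjusted p under 0.05, limma), with slopes from 0.25 to 0.65 log2 units per SD. Within the shallow libraries all 9 had an unadjusted p under 0.05 and 0 were called. Insert size and depth class were not independent: it ran from 201.8 to 254.8 in deep libraries and from 227.1 to 275.7 in shallow ones. With depth class as covariate 468 genes were called with insert size, against 5 without, and no member was among them. The comparison of deep with shallow libraries had none of 9 either (1.23% of genes called; 0 unadjusted, limma). Medians were 3.9 RPKM in deep and 8.76 RPKM in shallow libraries for Adipoq, 43.8 and 113 RPKM for Cfd, and 76.5 and 97.7 RPKM for Fabp4, and the ranges of the classes overlapped for all 3.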

How the data were processed

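The authors deposited 1 table of RPKM values for 27902 RefSeq transcripts in 30 tumours; the unit was inferred from the values, because low values multiplied by transcript length fell on steps. The submitters' processing notes name CASAVA 1.7.0. Aligner, genome build and annotation: not given in the sources used here. Names came from RefSeq (GRCm38.p6, 26490 rows) and GENCODE vM21 (154 rows); 1258 unnamed rows (1.94% of summed RPKM) and 699 small RNA rows were left out. Per gene the row with the highest mean was kept; Lipe, Plin1 and Pparg each had another row.

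Depth was the step at which values of transcripts of 150 to 2500 bases lay nearest to whole reads (68.5 to 78.3% within 0.12 of a whole number, 24.0% by chance), too few for a count test. The deep and shallow classes are separated by a gap in these estimates and carry no label.

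Values were tested as log2(RPKM + 1) with limma 3.58.1 in R 4.3.3 (empirical Bayes with trend, two-sided, Benjamini-Hochberg over all tested genes, threshold 0.05). A mean of 1 RPKM or more was required (13610 genes), which Lep failed. Predictors were standardised. Genes of a list were left out of tests against that list's score, and Adipoq where it was in the model. Each animal gave 1 library, so errors cover animal and technical variation together. The method was tested on simulated data. The members, lists and tests were chosen with earlier results of these data known. Named genes were the members, up to 5 genes most correlated with each, the 10 with the smallest p in each direction on Adipoq, and per list the 2 most abundant and those with the steepest and lowest slope, predicted genes passed over; other listed genes were named after their values were seen. Alternatives were a pseudocount of 0.1, no minimum or 5 RPKM, quantile normalization, summed rows, depth class as covariate, each class alone, and leaving out tumours singly or the 2 farthest from the predictor's median. Leaving out animals 4036 and 4357, or the 4 highest tumours, was chosen after seeing the data. Python 3.11.15 was used with pandas 2.3.3, numpy 2.4.6, scipy 1.17.1 and matplotlib 3.10.9.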

Additional observations from a re-analysis of the deposited data

How the results depend on the processing

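The 8 members tested against Adipoq rose under every alternative run except those that changed how many were tested: 7 of 7 rose at a mean of at least 5 RPKM, where Pparg was not tested, and 9 of 9 with no minimum, where Lep was added.

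Counts of members called with cell scores moved more; the cause was not tested. For the stroma matrix score (9 of 9) the count was 3 in the shallow libraries alone, 3 without animals 4036 and 4438 (farthest from the score's median), 0 without 4036 and 4357, 0 without the 4 highest tumours, and 5 to 9 leaving out 1 tumour, with 5 without 4036. For the endothelial score (9 of 9) it was 1 without the 4 highest tumours. For the macrophage score (9 of 9) it was 0 in deep libraries, 0 in shallow ones, 1 without the farthest 4036 and 4150, 0 without 4036 and 4357, 0 without the 4 highest tumours, and 7 to 9 leaving out 1. For the skeletal muscle score (5 of 9) it was 0 in deep libraries, 9 in shallow ones, 0 without the farthest 3273 and 4357, 9 without 4036 and 4357, 1 without the 4 highest tumours, and 0 to 9 leaving out 1. In the deep libraries the muscle slopes of Adipoq (-0.19), Plin1 (-0.19) and Cidec (-0.11) reversed without passing. For the proliferation score (1 of 9) it was 2 with no minimum, where Lep passed too, 0 in deep libraries, 0 in shallow ones, 0 without the farthest 4036 and 4459, 0 without 4036 and 4357, 0 without the 4 highest tumours, and 0 to 4 leaving out 1. For the endothelial score given Adipoq (0 of 8) it was 0 to 1 leaving out 1. Under all alternatives run 0 members were called with the milk and lymphocyte scores, insert size, depth class, and the macrophage and milk scores given Adipoq.

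Counts over all genes ranged more widely. They were 1066 for Adipoq (41 to 1696), 2681 for stroma (575 to 3129), 3217 for endothelial (610 to 3903), 1313 for macrophage (163 to 2047), 187 for lymphocyte (14 to 667), 186 for milk (2 to 337), 302 for muscle (25 to 741), 2100 for proliferation (279 to 2764), 5 for insert size (1 to 468) and 168 for depth class (60 to 249). Given Adipoq they were 1358 for endothelial (19 to 1568), 148 for macrophage (0 to 277) and 208 for milk (0 to 377). Quantile normalization moved the share of rising genes among those called from 84 to 71.6% for Adipoq, 73 to 49.5% for macrophage, 41.4 to 70.9% for milk, 92.1 to 81.9% for muscle and 40 to 57.1% for insert size, and, given Adipoq, from 87.2 to 71.5% for macrophage and 40.9 to 70.4% for milk. It shifted no tumour's median by more than 0.0842 log2 units. No paired analysis was possible because all tumours form 1 group. Depth limits Lep most, at about 3.1 reads in its lowest tumour.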
